A study of Mus musculus with 10 samples.

Results

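The cells were splenic B cells of C57BL/6 mice. Stimulated cells that did not secrete IL-10 (IL-10- cells, 3 arrays) were compared with total B cells (2 arrays). From their title, total B cells were taken to hold both secreting and non-secreting cells. The comparison covers every probe with a deposited detection score above 0.99 on at least 2 of these 5 arrays, which left 15148 of 45281 probes and, with 1 probe per gene, 10367 genes of the 30854 names on the array. The probe filter used whether a probe was detected and not the difference between the groups, but 349 of these probes were detected on no IL-10- array and 420 on no total B array, so such probes entered only through the group in which they are bright.

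RNA was measured on 10 one-colour Illumina mouse beadchip arrays, the other 5 of which carried IL-10+ (secreting) cells. Per the labels, B cells were freshly isolated from spleen and stimulated for 5 h with 10 µg/ml LPS (a bacterial Toll-like receptor 4 ligand), 50 ng/ml PMA (a protein kinase C activator) and 500 ng/ml ionomycin (a calcium ionophore). Secreting and non-secreting cells were then separated with an IL-10 secretion assay kit followed by flow sorting. The stimulation is given in a text shared by all samples, so the treatment of the total B cells rests on that shared text, and the labels describe no sorting step for them. Total B cells may therefore differ from IL-10- cells in 2 ways, in holding the secreting cells and in their handling, and these cannot be told apart. No label states that the arrays of a group come from separate mice, and no age or sex is given, and the p-values therefore reflect only how far these arrays spread, which may be technical. Both total B arrays and IL-10- replicate 5 were on slide 2, and IL-10- replicates 2 and 3 were on slide 1. Detected probes numbered 14104 ± 202 (SD, n = 3) on the IL-10- arrays and 14688 ± 422.8 (SD, n = 2) on the total B arrays (two-sided exact permutation p = 0.1, the smallest that the 10 splits of 5 arrays allow). Array profiles correlated at 0.968 to 0.983 among IL-10- arrays, at 0.986 between the total B arrays and at 0.948 to 0.962 between the groups, across probes that are not independent.

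IL-10 is a cytokine that dampens inflammation, and B cells that release it after stimulation are often called regulatory B cells. Most splenic B cells do not release it. LPS signals through Toll-like receptors to NF-kB and interferon regulatory factors, while PMA and ionomycin together mimic antigen receptor signalling and switch on immediate early genes, cytokines and growth programmes.

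Of the 10367 genes, 1597 (15.4%) differed between IL-10- and total B cells at an adjusted p under 0.05, the threshold used throughout for "rose" and "fell" (limma, Benjamini-Hochberg over all genes tested). Of these, 886 (8.55% of the genes tested) were higher and 711 (6.86%) lower in IL-10- cells, so 55.5% of the calls were rises. The shares of 8.55% and 6.86% are the background for every list count given below. At least a 2-fold difference was reached by 397 of the risen and 320 of the fallen genes. For 4549 genes (43.9%) every array of one group was above every array of the other, and these hold all 1597 called genes. A lack of overlap is therefore shared by every called gene and adds nothing to a call. The median difference over all genes was 0.01 on the log2 scale. That split rests on the scaling between arrays: rises made up 68% of 1416 calls with median scaling over the probes detected on all arrays, and 17.3% of 618 calls with median scaling over all probes, where the median gene shifted by -0.27. Each total B array also carried much of the count: omitting replicate 1 left 457 calls and omitting replicate 2 left 554. In a count chosen after the data were seen, 253 genes (163 higher, 90 lower) passed the threshold in each of the 5 fits that leave out 1 array, and 234 of them (158 higher, 76 lower) also passed with slide as a block and within slide 2. Genes called "steady" below are among these 234. With median scaling over all probes some of them missed the threshold, namely Ms4a1 (0.98, adjusted p = 0.0981), Zbtb32 (1.06, adjusted p = 0.0804), Stat2 (0.96, adjusted p = 0.109), Il12a (1.37, adjusted p = 0.053) and Slc30a1 (0.93, adjusted p = 0.157) as well as the MHC class I genes given below. The other genes named as risen or fallen passed with all 10 arrays but lost the threshold in at least 1 of those fits. The fit within slide 2 holds only 1 IL-10- array, and each fit without a total B array holds only 1 of that group. In such fits that group shows no spread of its own, and the spread comes from the other groups.

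**Figure D1:**
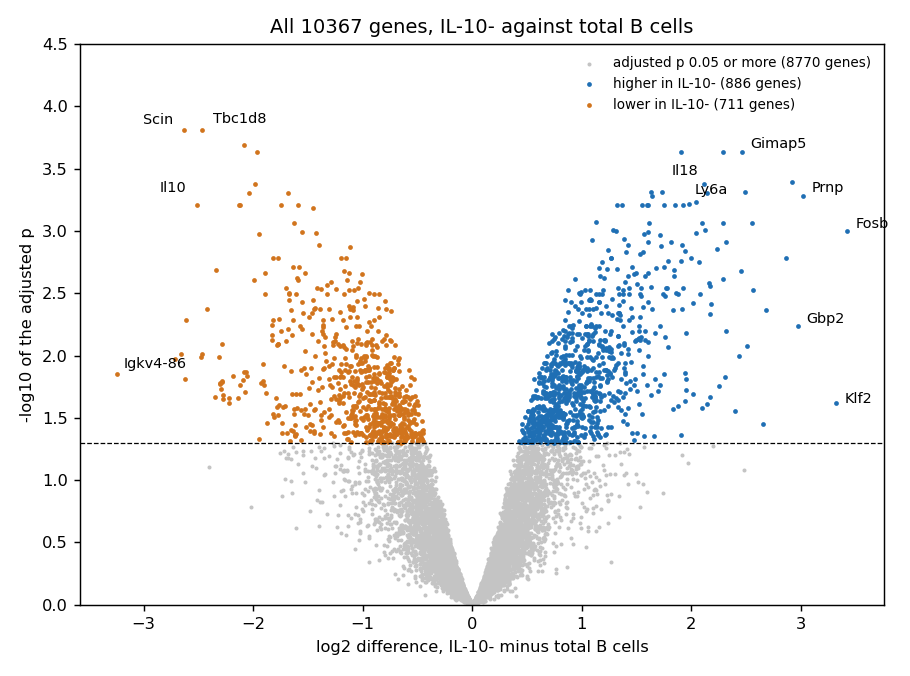
Log2 difference between IL-10- and total B cells (horizontal axis) against -log10 of the adjusted p (vertical axis) for the 10367 genes tested, one point per gene, with the 0.05 threshold as a dashed line. The 886 rises (blue) and 711 falls (orange) reach up to 3.42 for Fosb and down to -3.25 for Igkv4-86.

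Il10 checked the sort. Its normalized log2 level was 7.92, 7.77 and 7.55 on the IL-10- arrays (replicates 2, 3 and 5) and 10.63 and 9.89 on the total B arrays (replicates 1 and 2), and it averaged 13.18 ± 0.28 (SD, n = 5) in IL-10+ cells. The IL-10- arrays were all below the total B arrays, and Il10 fell by 2.51 ± 0.26 on the log2 scale (SE, adjusted p = 0.000617), a 5.71-fold difference, and was steady. It was detected on all 3 IL-10- arrays, so the non-secreting cells still gave an Il10 signal above background.

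B cell markers were present in both groups. Cd79b, a signalling chain of the B cell receptor, differed by 0.04 ± 0.21 (adjusted p = 0.914). Of 16 measured B cell identity genes, 3 rose (18.8%, against 8.55% over all genes) and none fell, with a list median of 0.28. Ms4a1, which encodes the surface protein CD20, was 8.18, 8.38 and 8.04 on the IL-10- arrays against 6.93 and 6.73 on the total B arrays. This was a steady rise of 1.37 ± 0.15 (adjusted p = 0.000617). Cd22, an inhibitory coreceptor, rose by 0.79 ± 0.18 (adjusted p = 0.0171) and missed the threshold without total B replicate 2 (0.57, adjusted p = 0.135) and within slide 2 (0.64, adjusted p = 0.133). Pax5 was detected on 1 of the 5 arrays and so did not enter the test, and Cd79a is not analysed here.

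Most markers of other cells on the array were not detected. None of the 3 measured T cell genes, the 1 natural killer gene, the 3 macrophage genes, the 2 dendritic cell genes and the 1 stromal gene passed in limma, and 1 of them, the T cell gene Il7r, had an unadjusted p under 0.05 (-1.21 ± 0.39, adjusted p = 0.0608; 0.0455 with the replicate block, a fit that joins the sorted fractions of one replicate number). Among the detected markers, the group means in IL-10- and total B cells were 9.21 and 10.42 for Il7r, 9.63 and 9.49 for Cd8b1, a chain of the CD8 coreceptor, 12.12 and 12.26 for Prf1, the pore-forming protein of cytotoxic cells, and 8.61 and 8.77 for Siglech, a receptor of plasmacytoid dendritic cells. Cd3d, Cd3e, Cd3g, Cd4 and Cd8a were detected on none of the 5 arrays, nor were Csf1r, Itgam, Cd14, Itgax or any of the 9 neutrophil genes on the array. The summed intensity of the 11 T cell markers on the array was 1859 to 3926 in IL-10- and 2888 to 3854 in total B cells, that of the 7 natural killer markers was 3178 to 4818 and 3881 to 7343, and that of the 15 macrophage markers was 2160 to 3601 and 2499 to 3793. Erythroid and platelet markers moved with the groups: 2 of 3 measured genes fell, Hbb-b2, a beta globin, at least 1.06-fold (adjusted p = 0.0115, means 4.81 and 5.81) and Gp9, a platelet surface protein, at least 1.20-fold (adjusted p = 0.0273, means 5.09 and 5.99). Their 11 markers on the array summed to 1445 to 2188 in IL-10- and 2260 to 2939 in total B cells, with Alas2, Car1, Slc4a1 and Itga2b among those detected on no array, and their part in the falls described below was not tested. Hbb-b2 missed the threshold without total B replicate 1 or 2 (adjusted p = 0.058 and 0.074), and Gp9 without either of them (adjusted p = 0.0502 and 0.191) or without IL-10- replicate 5 (adjusted p = 0.0573). Here and below, fewer cells of a type and less RNA per cell cannot be told apart.

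The largest rises held transcription factors, interferon-inducible and surface genes. Fosb, an AP-1 transcription factor of the immediate early class, was 10.41, 10.28 and 9.66 on the IL-10- arrays against 6.86 and 6.53 on the total B arrays, a rise of 3.42 ± 0.40 (adjusted p = 0.00101). Its lowest IL-10- array was above both total B arrays, and its mean in IL-10+ cells was 9.06 ± 0.61. Prnp, the prion protein, was 10.16, 10.96 and 10.60 against 7.16 and 7.94, a rise of 3.02 ± 0.30 (adjusted p = 0.000526). Its mean in IL-10+ cells was 10.55 ± 0.29. Atf3, a stress-induced transcription factor, was 9.81, 9.67 and 9.56 against 7.30 and 6.34 (rise 2.86 ± 0.37, adjusted p = 0.00165). Txnip, an inhibitor of thioredoxin and of glucose uptake, was 10.42, 10.36 and 11.20 against 8.24 and 7.98 (rise 2.55 ± 0.29, adjusted p = 0.000869). All of these genes were steady, and the rule that picked them required arrays without overlap.

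Fxyd5, a regulator of the sodium pump and of adhesion, was 11.29, 10.96 and 11.27 in IL-10- against 8.53 and 8.84 in total B cells, a steady rise of 2.49 ± 0.23 (adjusted p = 0.000485). Gimap5, a lymphocyte survival GTPase, was 10.86, 10.98 and 10.98 against 8.12 and 8.85, a steady rise of 2.46 ± 0.20 (adjusted p = 0.000233), while its further probe differed by 0.28 only. Klf2, a transcription factor of lymphocyte quiescence and homing, was uneven between arrays, at 11.97, 10.25 and 10.01 against 8.69 and 6.15 (rise 3.32 ± 0.83, adjusted p = 0.0239). The total B arrays differed from each other more than for any gene above, and omitting total B replicate 1 gave 4.59, omitting replicate 2 gave 2.05 (adjusted p = 0.189); the rise was 2.71 without IL-10- replicate 2 (adjusted p = 0.0561) and 2.59 within slide 2 (adjusted p = 0.113). Bank1, a B cell scaffold protein, was 11.36, 10.81 and 8.56 against 7.35 and 7.83 (rise 2.65 ± 0.73, adjusted p = 0.0355). The slide 2 array was the low one of the IL-10- group, the rise within slide 2 was 0.97 (adjusted p = 0.0581), and it was 3.50 without that array, 2.09 without IL-10- replicate 2 (adjusted p = 0.0847), 2.37 without replicate 3 (adjusted p = 0.0875), 2.41 without total B replicate 1 (adjusted p = 0.187) and 2.89 without replicate 2 (adjusted p = 0.112). Without background correction, dim genes had smaller differences, 2.41 for Fosb, 1.95 for Atf3 and 2.50 for Klf2, with each call kept.

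**Figure D2:**
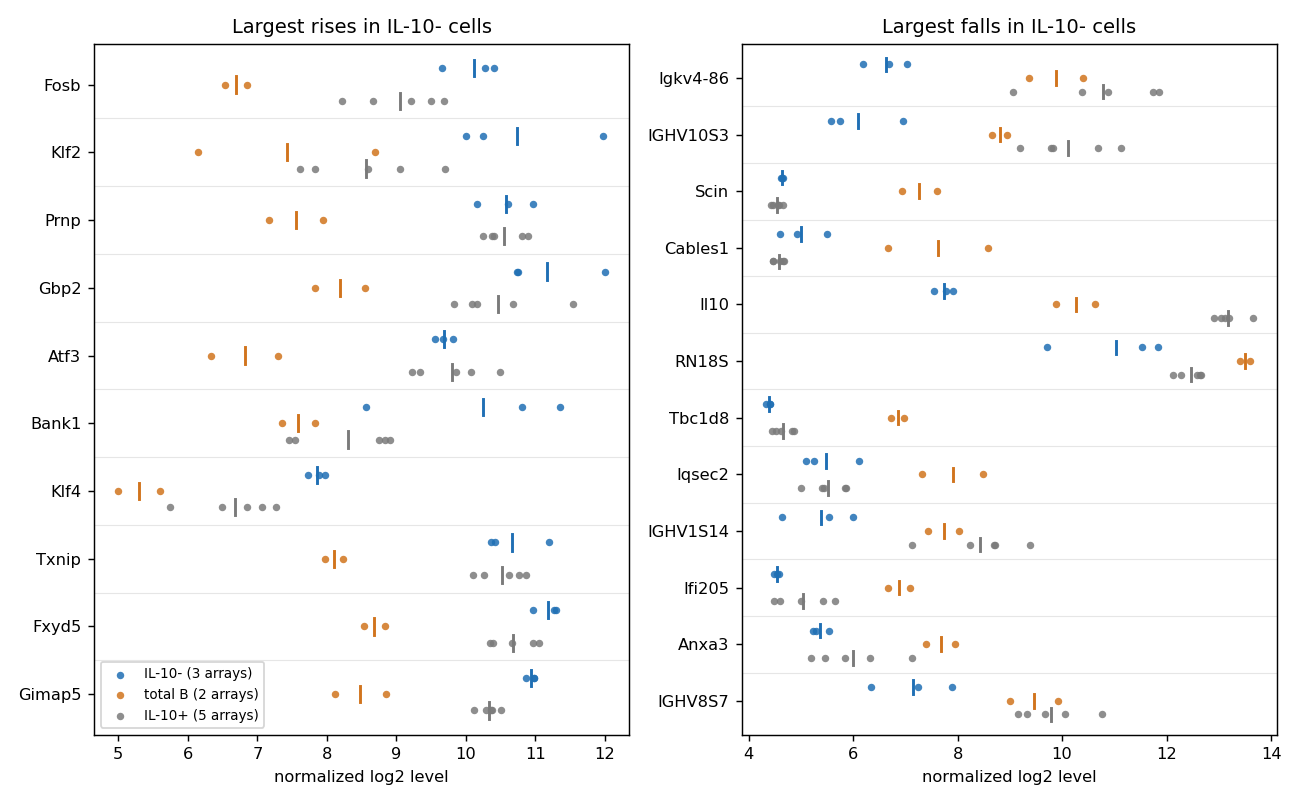
Normalized log2 level (horizontal axis) on each array of genes among the 12 largest rises (left) and the 12 largest falls (right) in IL-10- cells; points are arrays and vertical ticks are group means, for 3 IL-10-, 2 total B and 5 IL-10+ arrays. The blue and orange points do not overlap for any gene shown, as the choice of genes required. The spread between arrays is wide for Klf2 and Bank1 and narrow for Gimap5 and Tbc1d8.

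Among the largest falls, several genes were at background in IL-10- cells and are given as a lower bound. Scin, the actin-severing protein scinderin, was 4.65, 4.63 and 4.62 on the IL-10- arrays, not detected on any of them, against 7.60 and 6.93 in total B cells. It was at least 2.91-fold lower (adjusted p = 0.000155, means 4.64 and 7.26) and was also low in IL-10+ cells, at 4.54 ± 0.10. Tbc1d8, a Rab GTPase-activating protein, was at least 2.19-fold lower (adjusted p = 0.000155, means 4.39 and 6.85), with 4.66 ± 0.18 in IL-10+ cells. Ifi205, a member of the interferon-inducible p200 family, was at least 2.23-fold lower (adjusted p = 0.00207, means 4.54 and 6.88), with 5.04 ± 0.51 in IL-10+ cells. These genes, whose total B levels lay above both sorted groups, were steady. Cables1, a regulator of cyclin-dependent kinases, was at least 3.73-fold lower (adjusted p = 0.00516, means 5.01 and 7.62), but its total B arrays were apart, at 8.58 and 6.66. It fell by 1.65 in the fit without the first and fell by 3.57 without the second. Anxa3, a calcium-dependent membrane-binding protein, was at least 3.87-fold lower (adjusted p = 0.0103, means 5.36 and 7.67) and missed the threshold without total B replicate 1 (adjusted p = 0.088) and within slide 2 (adjusted p = 0.058). Iqsec2, an exchange factor for ARF GTPases, fell by 2.42 ± 0.39 (adjusted p = 0.0042), was detected on 1 of the 3 IL-10- arrays and missed the threshold within slide 2 (adjusted p = 0.0576).

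RN18S, a probe for 18S ribosomal RNA, was 11.53, 11.84 and 9.71 on the IL-10- arrays and 13.40 and 13.60 on the total B arrays, a fall of 2.48 ± 0.49 (adjusted p = 0.0102). Its 2 further probes fell by 2.14 and 2.46. The IL-10- array of slide 2 was the lowest of all, and the probe fell by 1.82 without it and fell by 3.79 within slide 2. It missed the threshold without total B replicate 1 (adjusted p = 0.0571) or 2 (adjusted p = 0.0682). Ribosomal RNA carries no poly(A) tail, and the part of this difference in the other results was not tested. In IL-10+ cells it was 12.46 ± 0.24. None of the 17 measured cytosolic ribosomal protein genes passed in limma or had an unadjusted p under 0.05 (list median 0.02).

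Immunoglobulin variable genes, a group singled out after its values were seen and given with no test of the group, fell in 21 of 28 measured heavy chain cases and in 4 of 23 light chain cases. Over all genes tested, 6.86% fell and 8.55% rose. Of the 28 heavy chain variable genes none rose, all 28 differences were below 0, and the median was -1.75 (-1.73 with the 7 genes that were not detected in IL-10- cells at their bound). The mean level over the 28 genes was 6.67, 6.59 and 5.78 on the IL-10- arrays and 8.14 and 8.02 on the total B arrays, and it ranged from 7.98 to 9.65 on the IL-10+ arrays. The arrays of IL-10- and total B cells did not overlap for this mean, and the slide 2 array of IL-10- cells was again the lowest. IGHV10S3 was 5.74, 6.96 and 5.58 on the IL-10- arrays, detected on 2 of 3, against 8.66 and 8.95 (fall 2.71 ± 0.54, adjusted p = 0.0107). IGHV8S7 was 7.88, 7.24 and 6.34 against 9.92 and 9.0 (fall 2.31 ± 0.52, adjusted p = 0.0165). IGHV1S14, detected on 1 of 3 IL-10- arrays, was 6.00, 5.54 and 4.63 against 8.03 and 7.44 (fall 2.35 ± 0.57, adjusted p = 0.0214).

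Of 23 kappa and lambda variable genes, 4 fell and none rose, with a median of -0.68. Igkv4-86 had the largest fall of any named gene, with 7.02, 6.19 and 6.69 against 9.37 and 10.39 (fall 3.25 ± 0.70, adjusted p = 0.0142). The other light chain calls were IGKV4-71 (-1.66), IGKV4-73 (-1.62) and Iglv1 (-0.86), with an adjusted p of 0.249, 0.151 and 0.233 without total B replicate 1, of 0.0789, 0.147 and 0.0954 without replicate 2 of 0.0849, 0.0773 and 0.0576 without IL-10- replicate 5 and of 0.0745, 0.07 and 0.054 with the replicate block, which kept the call of Igkv4-86 (adjusted p = 0.0201). The constant genes differed less, with none of 4 past the threshold in limma and none at an unadjusted p under 0.05. Ighm, the IgM constant region, differed by -0.41 ± 0.21 (adjusted p = 0.198) and Igkc, the kappa constant region, by -0.22 ± 0.17 (adjusted p = 0.422). None of the variable gene calls was steady: without total B replicate 1, 0 of 28 heavy chain genes passed (median -1.84), and without replicate 2, 1 of 28 (median -1.80), while 23 of 28 passed within slide 2 (median -2.43) and 12 with slide as a block (median -1.78). With the replicate block 13 of 28 passed (median -1.63), and without background correction 12 (median -0.98). Without those arrays in turn the adjusted p was 0.0567 and 0.072 for IGHV10S3, and it was 0.106 for Igkv4-86 without replicate 2, 0.139 for IGHV8S7 without replicate 1, and 0.147 and 0.0716 for IGHV1S14 without replicates 1 and 2. Variable genes are close in sequence, so 1 transcript can bind probes of several, and the calls are not independent.

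**Figure D3:**
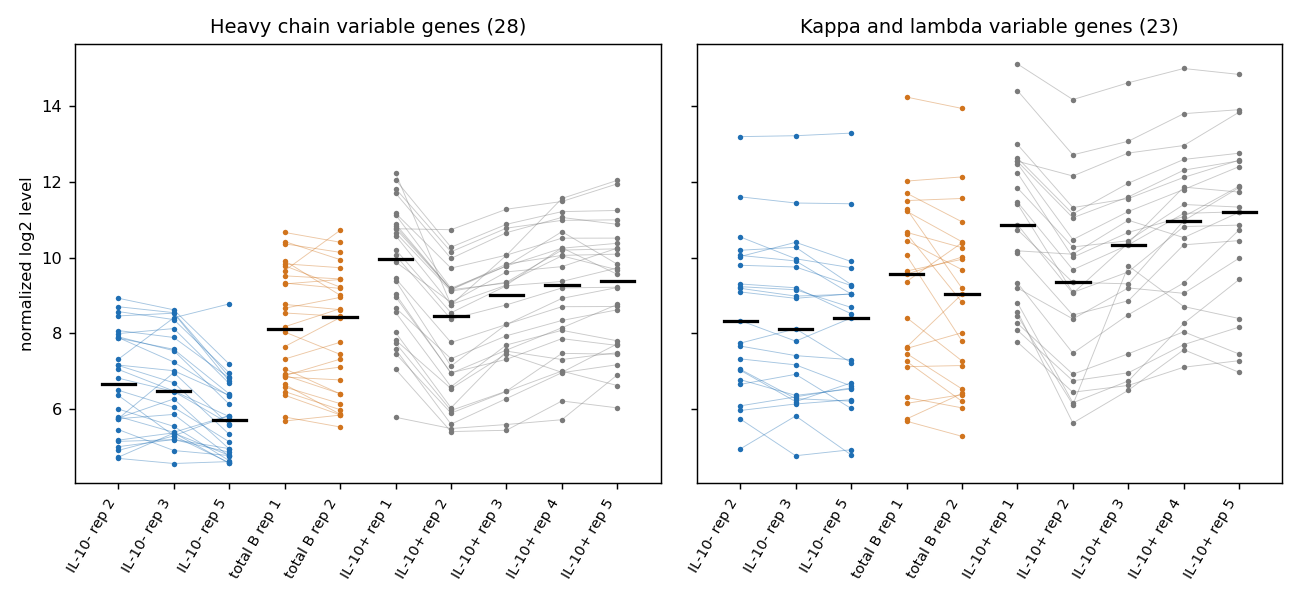
Normalized log2 level (vertical axis) of 28 heavy chain variable genes (left) and 23 kappa and lambda variable genes (right) on each array; points are genes, thin lines join a gene within a group and black bars are medians over genes. The heavy chain medians of the IL-10- arrays are all below those of both total B arrays.

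**Figure D4:**
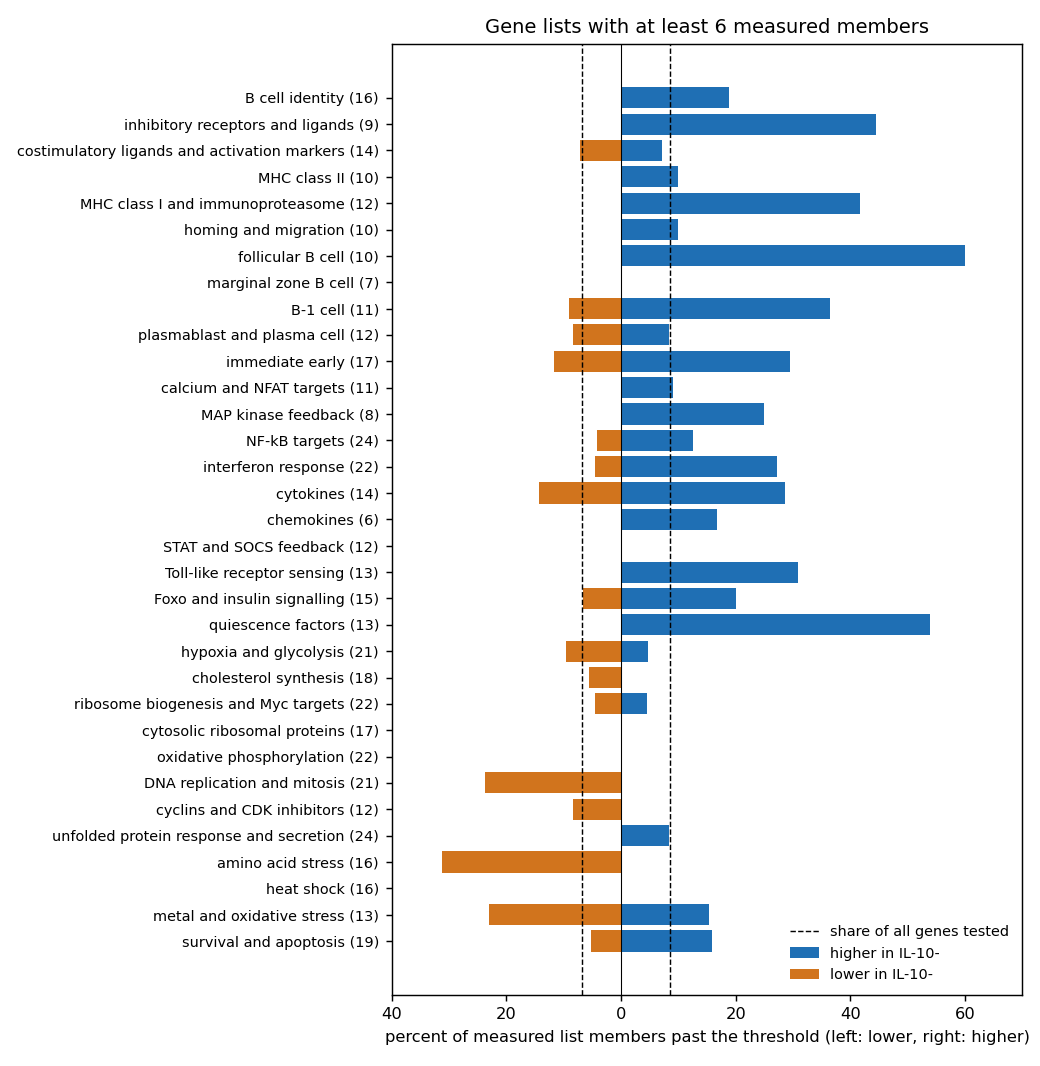
Percent of the measured members of each gene list that rose (to the right) or fell (to the left) in IL-10- cells, for lists with at least 6 measured members, whose number is in brackets; dashed lines are the shares over all genes tested, 8.55% higher and 6.86% lower. Follicular B cell genes, quiescence factors, inhibitory receptors and MHC class I genes lie furthest to the right, and amino acid stress and DNA replication genes furthest to the left.

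Surface receptors and ligands that restrain lymphocytes rose in 4 of 9 measured cases and fell in none (list median 1.08, against 0.01 over all genes). Vsir, the checkpoint protein VISTA, was 11.20, 10.98 and 10.70 against 9.46 and 9.33, a steady rise of 1.57 ± 0.18 (adjusted p = 0.00106). Cd200, a ligand of an inhibitory myeloid receptor, was 11.31, 11.59 and 12.06 against 9.23 and 10.21, a steady rise of 1.93 ± 0.28 (adjusted p = 0.00288), with 0.37 at the lower of its 2 further probes. For both genes every IL-10- array was above the total B arrays, as for every risen gene. Lag3, which binds MHC class II and marks some regulatory plasma cells, was 7.57, 7.79 and 6.79 against 5.59 and 4.67 (rise 2.25 ± 0.52, adjusted p = 0.0175) and was higher still in IL-10+ cells, at 9.02 ± 0.75. It was detected on 1 of the 2 total B arrays and missed the threshold without total B replicate 2 (1.79, adjusted p = 0.131) and without background correction (0.89, adjusted p = 0.102). Btla, an inhibitory receptor of the CD28 family, rose by 1.15 ± 0.25 (adjusted p = 0.0145) but not without total B replicate 1 or 2 (adjusted p = 0.101 and 0.0625) or within slide 2 (adjusted p = 0.0825).

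Genes of MHC class I presentation rose in 5 of 12 cases and fell in none (list median 0.53). Tap1, a subunit of the peptide transporter, was 10.17, 9.81 and 10.08 against 8.61 and 8.65 (rise 1.39 ± 0.17, adjusted p = 0.00116). Psmb9, an immunoproteasome subunit, was 11.25, 11.21 and 11.83 against 9.99 and 10.16 (rise 1.35 ± 0.22, adjusted p = 0.00474). Nlrc5, the transactivator of MHC class I genes, was 10.32, 10.47 and 10.53 against 9.34 and 9.16 (rise 1.19 ± 0.16, adjusted p = 0.00177). These 3 were steady, though with median scaling over all probes their differences of 1.05, 1.06 and 0.85 no longer passed (adjusted p = 0.0966, 0.13 and 0.207). Psmb10, another immunoproteasome subunit, rose by 1.12 (adjusted p = 0.0372; 0.0649 to 0.253 without IL-10- replicate 2 or 3 or either total B array). Tap2, the partner subunit of Tap1, rose by 0.72 ± 0.17 (adjusted p = 0.0202), but not without total B replicate 1 or 2 (adjusted p = 0.0832 and 0.115). Of 10 MHC class II genes only H2-Ab1 passed, with 0.51 ± 0.13 (adjusted p = 0.0276) in the fit of all arrays and an adjusted p of 0.1 and 0.14 without total B replicates 1 and 2, 0.0645 without IL-10- replicate 2 and 0.153 within slide 2. Of 14 costimulatory ligands and activation markers, 1 rose and 1 fell, close to the shares over all genes. The IL-2 receptor chain Il2ra rose by 0.60 ± 0.15 (adjusted p = 0.0283), and Cd80, a ligand of CD28, was at least 1.38-fold lower in IL-10- cells, where it was not detected (adjusted p = 0.042, means 5.18 and 6.19), with 7.44 ± 0.36 in IL-10+ cells. Both missed the threshold without total B replicate 1 (Il2ra adjusted p = 0.186, Cd80 0.166), without total B replicate 2 (0.0723 and 0.159) and without IL-10- replicate 5 (0.0555 and 0.0812), as did Il2ra without IL-10- replicate 3 (0.064) and within slide 2 (0.0703).

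Genes of follicular B cells, the recirculating majority of splenic B cells, rose in 6 of 10 cases and fell in none (list median 0.97). Fcer2a, which encodes CD23, a low-affinity receptor for IgE, was 12.09, 11.86 and 11.55 against 10.51 and 10.38 (rise 1.39 ± 0.30, adjusted p = 0.014), and it was 9.29 ± 0.45 in IL-10+ cells, below total B cells (-1.15, adjusted p = 0.0135). The 2 further Fcer2a probes differed by -0.07 and 0.03. The total B mean thus lay between the sorted groups for Il10 and the listed Fcer2a probe, as it did for Cd80, Asns and Mt1. It lay outside them for Scin, Tbc1d8 and Txnip. It was below both for many other risen genes, such as Fosb, Prnp, Klf6, Gbp2, Gbp3, Ly6a, Il18, Tlr2, Lag3 and Zbtb32. These patterns were not counted over all genes. No follicular gene was steady: Fcer2a missed the threshold without replicate 1 or 2 (adjusted p = 0.0714 and 0.0848) and within slide 2 (adjusted p = 0.0816). Other risen members were Klf2 and Btla, described above, Cd55, a brake on complement (1.21, adjusted p = 0.0438), and Traf5, a TNF receptor adaptor (0.78, adjusted p = 0.0396). Without 1 array the adjusted p of Cd55 rose to 0.194 (total B replicate 2) and that of Traf5 to 0.163 (total B replicate 2).

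None of 7 marginal zone genes passed in limma, with 1 higher and 1 lower at an unadjusted p under 0.05. Cr2, the complement receptor CD21, differed by 0.81 ± 0.27 (adjusted p = 0.0697) and Myof, a membrane repair protein, by -0.83 ± 0.27 (adjusted p = 0.0656). With the replicate block both passed, at 0.90 (adjusted p = 0.0468) and -0.83 (adjusted p = 0.0493).

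Of 11 genes of B-1 cells, 4 rose and 1 fell (list median 0.82). Zbtb32, a repressor that limits B cell responses, was 10.42, 10.66 and 10.55 against 8.85 and 9.45, a steady rise of 1.39 ± 0.20 (adjusted p = 0.00259), and reached 13.18 ± 0.18 in IL-10+ cells. Its IL-10- arrays were above both total B arrays, as for every risen gene. S100a6, a calcium-binding protein, was detected on all IL-10- and no total B arrays and was at least 1.83-fold higher (adjusted p = 0.0244, means 6.45 and 4.94), with 9.53 ± 0.58 in IL-10+ cells. Anxa2, an annexin that pairs with S100 proteins, fell by 1.18 ± 0.26 (adjusted p = 0.0149) and was 10.26 ± 0.30 in IL-10+ cells against 8.78 ± 0.56 in total B cells. Bhlhe40, a repressor, rose by 0.82 (adjusted p = 0.0476; 0.48, adjusted p = 0.32 without total B replicate 2). Ccdc28b, also on the list, was at least 1.23-fold higher (adjusted p = 0.00754, means 5.88 and 4.82; not detected on either total B array). S100a6 missed the threshold without total B replicate 1 or 2 (adjusted p = 0.099 and 0.131) or IL-10- replicate 5 (0.0528), Anxa2 without total B replicate 1 (-0.78, adjusted p = 0.136) and Ccdc28b without total B replicate 1 (adjusted p = 0.0526).

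The list of plasmablast and plasma cell genes, 12 of them measured, held 1 rise and 1 fall. Each was 8.33% of the list, near the 8.55% that rose and 6.86% that fell over all genes. Ly6a, the surface protein Sca-1, which is also interferon-inducible, was 12.59, 12.76 and 12.76 against 10.70 and 10.75, a steady rise of 1.98 ± 0.20 (adjusted p = 0.000606). Its level in IL-10+ cells was 12.58 ± 0.28. Prdm1, the plasma cell factor Blimp-1, was not detected in IL-10- cells and was at least 1.74-fold lower (adjusted p = 0.0373, means 5.00 and 6.52). That call was lost in most alternatives: it fell by 0.87 when total B replicate 1 was left out (adjusted p = 0.298) and fell by 2.18 when replicate 2 was, and the adjusted p was 0.0789 and 0.0919 without IL-10- replicates 2 and 3, 0.317 within slide 2 and 0.0571 with the replicate block.

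Immediate early genes, which are transcribed within minutes of receptor signalling without new protein synthesis, split by member. Of 17 measured, 5 rose and 2 fell (list median 0.44). Beside Fosb and Atf3, Klf4, a growth-restraining transcription factor, was 7.97, 7.73 and 7.88 against 5.60 and 5.00 (rise 2.56 ± 0.38, adjusted p = 0.00296), detected on 1 of the 2 total B arrays, and Klf6 of the same family rose by 1.6 ± 0.20 (adjusted p = 0.00123). Both were steady. Without background correction the Klf4 difference was 1.11. Fosl2, an AP-1 member like Fosb, showed a steady fall of 1.39 (adjusted p = 0.0042). Klf10 passed with no fold above background in total B cells, where it was not detected, and Maff, a small Maf factor, fell by 0.89, but neither passed without total B replicate 1 (adjusted p = 0.187 and 0.28), total B replicate 2 (0.117 and 0.0609) or IL-10- replicates 2 (0.0864 and 0.0972) and 3 (0.0883 and 0.0741). The arrays of the 2 groups overlapped for Egr1 and Jun, which did not pass the test.

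**Figure D5:**
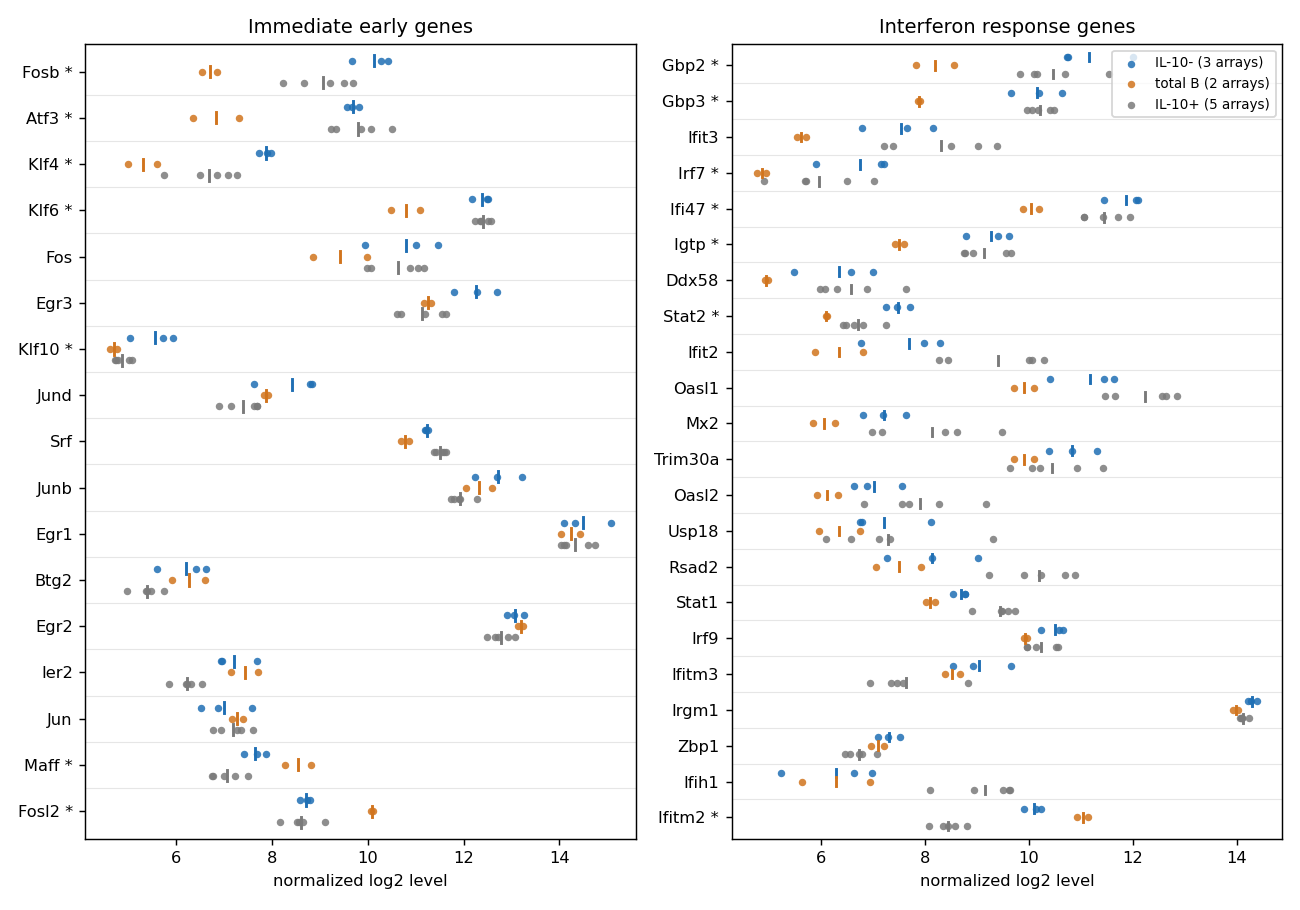
Normalized log2 level (horizontal axis) on each array of the 17 measured immediate early genes (left) and 22 interferon response genes (right), ordered by the difference between IL-10- and total B cells; points are arrays, vertical ticks are group means and an asterisk marks genes past the threshold. Fosb, Atf3 and Klf4 head the first list and Gbp2 and Gbp3 the second.

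Among feedback genes of MAP kinase signalling, 2 of 8 rose (25%, against 8.55% over all genes) and none fell. Dusp14, a dual-specificity phosphatase, was 8.21, 8.21 and 7.40 against 5.74 and 5.68, a steady rise of 2.23 ± 0.28 (adjusted p = 0.00139). Dusp6, a phosphatase specific for ERK, rose by 1.33 ± 0.31 (adjusted p = 0.0192), but not without total B replicate 2 (0.93, adjusted p = 0.151), and by 2.0 within slide 2. Of 24 NF-kB targets, 3 rose and 1 fell (list median 0.10), or 12.5% and 4.17%, against 8.55% and 6.86% over all genes. Nfkbib, the inhibitor IkB-beta, was 10.54, 10.49 and 11.01 against 8.94 and 8.95, a steady rise of 1.74 ± 0.16 (adjusted p = 0.000485). Icam1, an adhesion ligand of the integrin LFA-1, rose by 1.06 ± 0.19 (adjusted p = 0.00672; 0.79, adjusted p = 0.0602 without total B replicate 2). Rel, an NF-kB subunit, rose by 1.11 ± 0.33 (adjusted p = 0.0441). It was the single call among 11 calcium and NFAT target genes and was lost in each fit that left out IL-10- replicate 2 or 3 or either total B array (adjusted p = 0.0893 to 0.251) and within slide 2 (0.47, adjusted p = 0.301).

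Interferon response genes rose in 6 of 22 cases and fell in 1. The list median was 1.04, and 12 members were higher at an unadjusted p under 0.05. Gbp2, a guanylate-binding GTPase of interferon-induced defence, was 10.74, 10.75 and 12.004 against 7.83 and 8.55 (rise 2.97 ± 0.51, adjusted p = 0.00578), with a further probe at 1.28. Gbp3 of the same family was 9.66, 10.19 and 10.63 against 7.85 and 7.89, a steady rise of 2.29 ± 0.26 (adjusted p = 0.000862). Ifi47, an immunity-related GTPase, was 11.45, 12.06 and 12.10 against 9.89 and 10.20, a steady rise of 1.83 ± 0.30 (adjusted p = 0.00432). Stat2, which carries type I interferon signals to the nucleus, was 7.45, 7.71 and 7.25 against 6.11 and 6.08, a steady rise of 1.37 ± 0.24 (adjusted p = 0.00578). None of these 4 genes had overlapping arrays, as was so for every called gene. Irf7, the interferon regulatory factor that amplifies type I interferon, was not detected in total B cells and was at least 2.25-fold higher (adjusted p = 0.0435, means 6.75 and 4.85). Igtp, another immunity-related GTPase, rose by 1.76, and Ifitm2, an interferon-induced membrane protein, fell by 0.94. In IL-10+ cells Gbp2 was 10.46 ± 0.68 and Gbp3 10.22 ± 0.22, above total B cells as well (2.27, adjusted p = 0.0068, and 2.35, adjusted p = 0.00014), in comparisons that share the total B arrays. Gbp2 and Igtp missed the threshold without total B replicate 1 (adjusted p = 0.0562 and 0.0563), Ifitm2 without either total B array (0.107 and 0.0558), Irf7 without either of them (0.158 and 0.173) or IL-10- replicate 2 or 3 (0.0999 and 0.105), and Stat2 differed by 0.64 without background correction.

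The upstream sequences of 4 of the risen interferon response genes are shown because they hold the core of an interferon-stimulated response element. The motif searched was GAAA, any 2 bases and GAAA again, on both strands in the 250 bases before each RefSeq gene start (GRCm38.p6). It was found for 3.46% of 27025 genes with a sequence and 3.25% of 6654 tested genes with one. Of the 18 list members with a sequence 9 held it, and of the 6 that rose 4 did, as did the list's fallen gene, Ifitm2. Each line gives 90 bases, 5′ to 3′ on the gene's strand, with the motif in capitals (or its reverse complement, where the motif lies on the other strand; in Gbp3 a pair of matches overlaps).
Gbp2, chr3:142620569-142620658, plus strand: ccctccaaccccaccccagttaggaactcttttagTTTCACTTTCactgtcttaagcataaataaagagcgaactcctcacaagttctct
Gbp3, chr3:142559954-142560043, plus strand: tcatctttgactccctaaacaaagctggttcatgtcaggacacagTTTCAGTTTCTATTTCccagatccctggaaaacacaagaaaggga
Igtp, chr11:58199466-58199555, plus strand: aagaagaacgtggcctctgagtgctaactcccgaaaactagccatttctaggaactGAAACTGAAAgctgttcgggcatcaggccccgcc
Stat2, chr10:128270248-128270337, plus strand: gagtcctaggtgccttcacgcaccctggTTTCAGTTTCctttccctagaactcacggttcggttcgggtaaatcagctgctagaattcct
A match describes these letters only, and no binding was measured here.

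Cytokine genes moved in both directions. Of 14 measured, 4 rose and 2 fell. Il18, an inflammasome-processed cytokine that drives interferon gamma, was 7.33, 7.45 and 7.13 on the IL-10- arrays and was not detected on either total B array (5.04 and 5.34), a steady difference of at least 3.29-fold (adjusted p = 0.00042, means 7.30 and 5.19), with 7.97 ± 0.23 in IL-10+ cells. Il12a, the p35 subunit shared by IL-12 and IL-35, was 8.27, 8.34 and 8.90 against 6.87 and 6.65, a steady rise of 1.75 ± 0.27 (adjusted p = 0.00322), with 7.62 ± 0.34 in IL-10+ cells. Ebi3 (1.01), the other subunit of IL-35, and Tnfsf13b (0.98), the B cell survival factor BAFF, detected on 1 of the 2 total B arrays, also rose, but not without total B replicate 1 (adjusted p = 0.184 and 0.176) or 2 (0.0909 and 0.08) or IL-10- replicate 3 (0.0774 and 0.0668), nor Ebi3 without IL-10- replicate 2 (0.0605) and Tnfsf13b without IL-10- replicate 5 (0.0589). Il6, a pro-inflammatory cytokine, was not detected in IL-10- cells and was at least 2.36-fold lower (adjusted p = 0.0134, means 5.30 and 6.96), with 7.16 ± 0.35 in IL-10+ cells. It missed the threshold without total B replicate 1 (-1.16, adjusted p = 0.126). Of 6 chemokines, 1 passed (2 with the replicate block): Cxcl10, an interferon-induced attractant of T cells, rose by 1.49 ± 0.33 (adjusted p = 0.0155), from 6.54 and 5.36 on the total B arrays, only the first of which detected it. That rise was 2.07 without total B replicate 1, 0.90 without replicate 2 (adjusted p = 0.12) and 1.38 within slide 2 (adjusted p = 0.103).

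Genes of Toll-like receptor sensing rose in 4 of 13 cases (30.8%, against 8.55% over all genes) and fell in none (list median 0.22). Tlr2, the receptor of bacterial lipoproteins, was 6.45, 6.50 and 6.72 on the IL-10- arrays and not detected on the total B arrays (4.93 and 4.91), a steady difference of at least 1.97-fold (adjusted p = 0.000526, means 6.56 and 4.92). It was 7.64 ± 0.18 in IL-10+ cells. Tlr7, the sensor of single-stranded RNA, rose by 0.94 ± 0.18 (adjusted p = 0.00909), Ly86, the partner of the LPS receptor homologue RP105, by 0.72 ± 0.15 (adjusted p = 0.0116), and Ticam1, the adaptor TRIF, by 0.76 ± 0.22 (adjusted p = 0.0424). Tlr7 missed the threshold without total B replicate 2 (adjusted p = 0.0763), Ly86 without replicate 1 (adjusted p = 0.0974) and within slide 2 (adjusted p = 0.0801), and Ticam1 in each fit that left out 1 array (adjusted p = 0.0571 to 0.255) and with the replicate block (adjusted p = 0.0535). None of 12 STAT and SOCS feedback genes passed in limma, with 2 higher and 2 lower at an unadjusted p under 0.05. Stat5a, which carries IL-2 family signals, differed by -0.89 ± 0.29 (adjusted p = 0.0627) and Cish, a feedback inhibitor of it, by 0.78 ± 0.26 (adjusted p = 0.0691; 1.02, adjusted p = 0.0246 without IL-10- replicate 2).

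Factors that hold lymphocytes in a resting state rose in 7 of 13 cases and fell in none (list median 0.68). Beside Klf2, Klf4 and Txnip, Tsc22d3, the glucocorticoid-induced leucine zipper and a Foxo target, was 10.24, 9.78 and 9.88 against 8.64 and 7.77, a steady rise of 1.76 ± 0.27 (adjusted p = 0.00332). Ets1, a transcription factor that restrains plasma cell formation, was 10.32, 9.48 and 9.46 against 8.51 and 8.0 (rise 1.5 ± 0.28, adjusted p = 0.00754). Neither gene had overlapping arrays, as was so for every called gene. Tob1 (1.24), an antiproliferative protein, and Foxp1 (0.68), a regulator of naive B cells, also rose, Tob1 not without total B replicate 1 (adjusted p = 0.115) and Foxp1 not without either total B array (0.0571 and 0.0809). Klf2 is a Foxo1 target and sits on the list of Foxo and insulin signalling too, where 3 of 15 rose and 1 fell. The one that fell was Irs2, an adaptor of insulin and IL-4 receptors, at 12.04, 11.64 and 11.13 against 13.20 and 12.78 (fall 1.39 ± 0.34, adjusted p = 0.0237), and lower still in IL-10+ cells at 9.98 ± 0.46. Inpp5d, the inositol phosphatase SHIP-1, rose by 1.08 ± 0.31 (adjusted p = 0.0421). Ets1 missed the threshold without total B replicate 2 (adjusted p = 0.0678), Irs2 without total B replicate 1 or 2 (adjusted p = 0.164 and 0.0712) and Inpp5d without total B replicate 2 (0.55, adjusted p = 0.314) or IL-10- replicate 2 or 3 (adjusted p = 0.101 and 0.0947).

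Genes of DNA replication and mitosis fell in 5 of 21 cases and rose in none (list median -0.20), and 8 were lower at an unadjusted p under 0.05. Cdk1, the kinase that drives entry into mitosis, was 5.89, 5.95 and 6.00 against 7.79 and 7.45, a steady fall of 1.68 ± 0.26 (adjusted p = 0.0036). Top2a, the topoisomerase of dividing cells, was 6.82, 6.9 and 7.0 against 8.04 and 7.94, a steady fall of 1.08 ± 0.16 (adjusted p = 0.00296), with -0.30 at its further probe. Both had narrow groups, and their IL-10+ means of 7.29 ± 0.40 and 8.11 ± 0.19 were near those of total B cells. Mki67, the proliferation marker Ki-67, fell by 1.16 ± 0.27 (adjusted p = 0.0175), Cdc20, an activator of the anaphase-promoting complex, by 1.29 ± 0.34 (adjusted p = 0.0302), and Ccnb1, the partner cyclin of Cdk1, by 1.62 (adjusted p = 0.0431; 0.0733 to 0.279 without IL-10- replicate 2 or 3 or either total B array). Mki67 missed the threshold without total B replicate 1 (-0.65, adjusted p = 0.139), and Cdc20 without any 1 of both total B arrays and IL-10- replicates 2 and 3 (adjusted p = 0.0543 to 0.173) and within slide 2 (-0.50, adjusted p = 0.174). Of 12 cyclins and CDK inhibitors, Cdk6, a kinase of G1, was not detected in IL-10- cells and was at least 1.42-fold lower (adjusted p = 0.00759, means 4.83 and 6.23; adjusted p = 0.0693 without total B replicate 2).

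Few metabolic genes passed the test. Of 21 genes of hypoxia and glycolysis, 1 rose (4.76%) and 2 fell (9.52%), near the 8.55% and 6.86% over all genes (list median 0.03). Vegfa, the hypoxia-induced vascular growth factor, fell by 1.72 ± 0.36 (adjusted p = 0.0122) with total B arrays at 12.33 and 10.95. Pfkp, a phosphofructokinase, fell by 1.63 ± 0.43 (adjusted p = 0.0293), and Aldoa, an aldolase, rose by 0.52 ± 0.15 (adjusted p = 0.0415; 0.0533 with the replicate block). Of 18 cholesterol synthesis genes 1 passed (2 with the replicate block): Sc5d fell at least 1.53-fold (adjusted p = 0.0199, means 5.25 and 6.34; not detected in IL-10- cells), and of 22 ribosome biogenesis genes Nop56, a nucleolar protein, fell by 1.09 ± 0.25 (adjusted p = 0.0172) while Srm, spermidine synthase, rose by 0.46 ± 0.13 (adjusted p = 0.0354). None of 22 oxidative phosphorylation genes passed in limma, and 1 was higher at an unadjusted p under 0.05 (Uqcrc1, a complex III core protein, 0.48 ± 0.17, adjusted p = 0.0766). None of the calls in these groups was steady: without total B replicate 1 the adjusted p was 0.0887 for Vegfa (-1.03), 0.0878 for Pfkp, 0.248 for Aldoa, 0.1 for Sc5d, 0.0563 for Nop56 and 0.194 for Srm. Without replicate 2 it was 0.168 for Pfkp, 0.0814 for Aldoa, 0.1 for Sc5d, 0.121 for Nop56 and 0.0958 for Srm, and Vegfa fell by 2.41. Aldoa and Srm also missed the threshold without each IL-10- array in turn (adjusted p = 0.0515 to 0.0863).

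Targets of the amino acid stress response, in which the factor ATF4 switches on amino acid synthesis and transport, fell in 5 of 16 cases and rose in none (list median -0.46). At an unadjusted p under 0.05 in limma, 6 members were lower and 1 was higher. Cebpg, a dimer partner of ATF4, was 9.52, 9.69 and 9.16 against 10.96 and 10.72, a steady fall of 1.38 ± 0.20 (adjusted p = 0.00291). Asns, asparagine synthetase, was 9.92, 9.93 and 10.12 against 11.31 and 10.88 (fall 1.11 ± 0.19, adjusted p = 0.00495), and it was 11.77 ± 0.20 in IL-10+ cells. Every IL-10- array was below the total B arrays for both, as for every fallen gene. Mthfd2, a mitochondrial folate enzyme, fell by 0.87 ± 0.17 (adjusted p = 0.0103), Chac1, which degrades glutathione, by 1.63 ± 0.42 (adjusted p = 0.0269) and Aars, the alanyl-tRNA synthetase, by 0.49 (adjusted p = 0.0489; 0.0515 to 0.291 in every omission of 1 array and 0.054 with the replicate block). Without total B replicate 1 the adjusted p was 0.0515 for Asns, 0.0955 for Mthfd2 and 0.228 for Chac1 (-0.88), and Chac1 fell by 2.37 without replicate 2. Chac1 also missed the threshold without IL-10- replicates 2 and 3 (adjusted p = 0.0518 and 0.0688).

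Upstream sequences of the fallen genes Asns, Chac1 and Aars are shown because they hold the core of the element that ATF4 and C/EBP dimers bind, searched as TGATGNAA on both strands in the same 250-base windows. It was found for 3.91% of 27025 genes and 2.46% of the 6654 tested genes with a sequence, for 4 of 15 list members with one and for 3 of the 5 that fell. Capitals mark the motif or its reverse complement, 5′ to 3′ on the gene's strand, RefSeq GRCm38.p6.
Asns, chr6:7693210-7693299, minus strand: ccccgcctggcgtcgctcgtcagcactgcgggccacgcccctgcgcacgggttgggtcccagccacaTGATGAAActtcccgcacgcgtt
Chac1, chr2:119351014-119351103, plus strand: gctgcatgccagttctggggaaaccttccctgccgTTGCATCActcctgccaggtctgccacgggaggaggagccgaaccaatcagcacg
Aars, chr8:111033695-111033784, plus strand: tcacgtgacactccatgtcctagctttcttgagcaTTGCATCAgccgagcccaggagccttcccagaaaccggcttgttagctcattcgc
No binding was measured here.

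Metal and oxidative stress genes split, with 2 of 13 risen (15.4%) and 3 fallen (23.1%), against 8.55% and 6.86% over all genes. Mt1, a zinc-binding metallothionein, was 7.26, 7.95 and 8.70 against 10.77 and 9.53 (fall 2.19 ± 0.48, adjusted p = 0.0146) and reached 11.81 ± 0.48 in IL-10+ cells. Slc30a1, the zinc exporter, was 7.07, 7.18 and 7.42 against 6.2 and 5.59, only the first of which detected it (steady rise of 1.33 ± 0.22, adjusted p = 0.00452). Both are targets of Mtf1, the zinc-sensing factor, which rose by 0.58 ± 0.14 (adjusted p = 0.0211). Nfe2l2, the oxidative stress factor NRF2, fell by 1.48 ± 0.37 (adjusted p = 0.0243), and Sqstm1, a target of it, by 0.58 (adjusted p = 0.0327; 0.063 to 0.202 without any 1 array but IL-10- replicate 2). Without total B replicate 1 the adjusted p was 0.135 for Mt1 (-1.56), 0.0733 for Mtf1 and 0.165 for Nfe2l2, and without replicate 2 it was 0.126 for Mtf1 and 0.073 for Nfe2l2, while Mt1 fell by 2.81. Nfe2l2 also missed the threshold without IL-10- replicates 3 and 5 (adjusted p = 0.0548 and 0.052).

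Genes of survival and apoptosis rose in 3 of 19 cases (15.8%) and fell in 1 (5.26%), against 8.55% and 6.86% over all genes. Gadd45g, a growth arrest gene that activates p38 signalling, was 12.66, 12.32 and 11.92 against 10.78 and 10.01, a steady rise of 1.91 ± 0.31 (adjusted p = 0.0042), with 10.50 ± 0.34 in IL-10+ cells, near total B cells. Gadd45a, of the same family, rose by 1.14 ± 0.31 (adjusted p = 0.033), and Bcl2, which blocks mitochondrial cell death, by 1.16 ± 0.30 (adjusted p = 0.028). The IL-10+ means of these genes were 9.65 ± 0.39 and 9.60 ± 0.09. Xiap, a caspase inhibitor, was not detected in IL-10- cells, so only a bound could be given and none exceeded 1 (adjusted p = 0.0138, means 4.84 and 5.69). Bcl2 missed the threshold without any 1 of IL-10- replicates 2 and 3 and the total B arrays (adjusted p = 0.069 to 0.164) and was 0.39 within slide 2 (adjusted p = 0.307), Gadd45a missed it without IL-10- replicate 5 or either total B array (adjusted p = 0.0686 to 0.2), and Xiap without total B replicate 2 (adjusted p = 0.105).

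Of 24 genes of the unfolded protein response and secretion, 2 rose and none fell. The rises were 8.33% of the list, near the 8.55% over all genes, of which 6.86% fell. Hspa5, the chaperone BiP, rose by 0.68 ± 0.19 (adjusted p = 0.0331), and Sec11c, a signal peptidase subunit, by 0.61 ± 0.17 (adjusted p = 0.0372). Both missed the threshold without either total B array (Hspa5 adjusted p = 0.186 and 0.0965, Sec11c 0.105 and 0.189) and without IL-10- replicate 5 (0.0531 and 0.0745), as did Hspa5 without IL-10- replicate 3 (0.077) and Sec11c without IL-10- replicate 2 (0.0684). None of 16 heat shock genes passed in limma, with 1 higher and 4 lower at an unadjusted p under 0.05. Hsph1, a cytosolic chaperone, differed by -0.55 ± 0.17 (adjusted p = 0.0566) and Hspa1b, the inducible HSP70, by -0.88 ± 0.29 (adjusted p = 0.0701), and these passed without IL-10- replicate 5 (Hsph1, adjusted p = 0.0244) and without IL-10- replicate 2 (Hspa1b, adjusted p = 0.0321).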

How the data were processed

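Splenic B cell RNA was hybridised to 10 Illumina mouse arrays, 3 IL-10-, 2 total B and 5 IL-10+. The deposited intensity table (not normalized, with a detection score per probe) was exported with GenomeStudio 1.9.0 per the file headers. A second deposited table holds log2 values that the authors processed, with lumi per the submitters' processing notes, and served only as an alternative. Intensities were background-corrected and quantile-normalized with neqc (limma 3.58.1 in R 4.3.3, offset 16, detection p taken as 1 minus the deposited score). The brightest member probe stood for a gene, and names were updated through RefSeq (GRCm38.p6). A linear model over all 10 arrays with moderated variance gave IL-10- minus total B, with 7 residual degrees of freedom and Benjamini-Hochberg adjustment over 10367 genes. The fit was tested on simulated data. Array number and signal over background limit the precision. A group with no detection of a gene gives a bound ("at least"), the bright group's mean against the higher of the lowest detected signal and the dim probe's own.

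Named genes were Il10, the 12 largest rises and 12 largest falls with separate arrays (clone-type names left out), up to 4 called members per list by smallest p (2 where none passed) and B cell markers; other list members and the immunoglobulin families were named after their values were seen. Members and lists were chosen with earlier results of these data known. Replicate numbers were taken to pair the sorted fractions, as deviations of IL-10+ and IL-10- arrays with one number correlated at r = 0.367, 0.256 and 0.341. IL-10- replicate 5 also reached 0.291 with IL-10+ replicate 4 on the same slide, so slide and pairing cannot be told apart there. Total B cells were not paired. Their 2 deviations mirror each other (r = 0.158 and -0.158 with IL-10- replicate 2) and cannot show whether they are. Alternatives changed background correction, scaling, filter, probes, samples, slide, block and single arrays. Some results are not reported here.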

Additional observations from a re-analysis of the deposited data

How the results depend on the processing

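The count of 1597 genes stayed within 1.5 times under no background correction (1566), median scaling over detected probes (1416), other detection filters, slide as a block (1296), within slide 2 (1255), and the authors' deposited log2 table (1284 of 9679 probes). With the replicate block, which joins the sorted fractions of one number, it was 1655, which ended the calls of Prdm1, Ticam1 and Aldoa among the genes named by rule and, among other members the text names, of Aars, Klf10 (adjusted p = 0.0595), IGKV4-71, IGKV4-73 and Iglv1, left 13 heavy chain and 1 light chain variable calls, and added Il7r (-1.17, adjusted p = 0.0455), Cr2 and Myof. It was 2316 of 15148 when each probe was tested alone. It moved to 618 with median scaling over all probes, to 579 with only the 5 arrays, and, added after seeing the data, to 234 for genes past the threshold in every omission of 1 array and in both slide fits. Leaving out 1 array gave 457 to 1648. Of the 1597 genes, 1043 were also called with slide as a block and 752 within slide 2. The number of list calls, 102, became 54 with median scaling over all probes and 52 with the 5 arrays, and 49 to 120 when 1 array was left out. Of 92 named genes past the threshold, none turned sign and 27 passed in every alternative. Without background correction the differences of dim genes moved towards 0, among them to -0.97 for Scin, -1.12 for Cables1, 1.11 for Klf4, -0.91 for Tbc1d8, -0.82 for Ifi205, -0.78 for Cdk1, 0.81 for Il18, 0.52 for Tlr2, 1.06 for Dusp14 and 1.06 for Il12a, with these calls kept, and 13 calls of named genes were lost: S100a6 (0.48, adjusted p = 0.275), Cd80 (-0.31, 0.186), Lag3 (0.89, 0.102), Xiap (-0.24, 0.1), Gp9 (-0.26, 0.0981), Hbb-b2 (-0.28, 0.0809), Ticam1 (0.28, 0.0781), Prdm1 (-0.53, 0.0715), IGHV1S14 (-1.02, 0.0614), Gadd45a (0.71, 0.0603), Inpp5d (0.41, 0.0561), Ccdc28b (0.30, 0.0518) and Sc5d (-0.34, 0.05). The difference of -584.3 detected probes was -323.7 at a score of 0.95 (exact permutation p = 0.5). Arrays on 1 slide and 2 total B arrays limit what can be told apart from slide.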

Other observations

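Gene families singled out after their values were seen, and given with no test of the family, held further changes. Over all genes tested, 8.55% rose and 6.86% fell. The rises below were in part shared by IL-10+ cells. At the same threshold these were above total B cells for 8 of 9 tubulins (median 0.97) and 6 of 9 interferon-inducible GTPases (median 1.40). So were 3 of 8 Kruppel-like factors (median 0.85) and 8 of 37 replication histones (median 1.14), against 1197 of 10367 genes. Of 9 measured alpha and beta tubulin genes, which build microtubules, 6 rose and none fell (median 0.97). Tuba1c rose by 1.13 ± 0.13 (adjusted p = 0.000853) and Tuba3a by 1.43 ± 0.24 (adjusted p = 0.00515), and both passed in every omission of 1 array, while Tubb5 differed by -0.01. Tubulin genes are close in sequence, so probes can share transcripts, and with median scaling over all probes none of the 9 passed (median 0.68).

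Of 9 interferon-inducible GTPases, 7 rose and none fell (median 1.83), among them Gbp5 (1.41 ± 0.32, adjusted p = 0.0165) and Gbp6 (at least 3.46-fold, adjusted p = 0.00632, means 7.37 and 5.06, the listed probe not detected on either total B array), whereas Irgm1 and Irgm2 differed by 0.32 and 0.28 (adjusted p = 0.12 and 0.698). Without total B replicate 1 the number was 3 of 9, and without replicate 2 it was 5. Of 8 Kruppel-like factors 5 rose and none fell, Klf7 by 1.13 ± 0.28 (adjusted p = 0.0227), and 3 and 2 passed without total B replicates 1 and 2, while 2 were higher and 1 lower within slide 2. Klf10, counted among the 5 risen Kruppel-like factors, was not detected in total B cells and had no fold above background. Of 37 replication histone genes, 8 rose and none fell (median 1.04), while 5 of 21 genes of DNA replication and mitosis fell. Whether histone probes share transcripts was not checked, so the histone calls may not be independent. Most histone messages lack a poly(A) tail, as does 18S ribosomal RNA, whose probe fell by 2.48 while the histone median was above that of all genes. The part of poly(A) tails in these differences was not tested. Without total B replicate 1 or 2, 1 and 0 histone genes passed, and without IL-10- replicate 2 it was 3, with a median of 0.57 (0.62 within slide 2, with 7 passed).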
